A study of Homo sapiens with 9 samples.

Results

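Collagens are the trimeric proteins that make up most of the fibrils and sheets of the extracellular matrix, and each gene encodes a single chain of such a trimer. The 44 collagen chain genes among the 60708 genes counted were chosen by gene symbol, from *COL1A1* to *COL28A1*, a rule that uses no measured value. They were grouped by structure into 11 fibrillar collagens, 6 chains of the basement membrane collagen IV, 10 fibril-associated collagens with interrupted triple helices (FACIT), 5 chains of the beaded filament collagen VI, 3 chains of the network-forming collagens VIII and X, 4 transmembrane collagens, 2 multiplexins, the anchoring fibril collagen VII, and the 2 collagens XXVI and XXVIII. All 44 had a symbol match in the files, and 37 passed the filter on low counts in the comparison of *SNAI1*-KO with WT libraries.

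A collagen chain is hydroxylated and glycosylated in the endoplasmic reticulum, folds with its partner chains into a triple helix, and is secreted, trimmed and cross-linked outside the cell. Fibrillar collagens give connective tissue its tensile strength, whereas collagen IV builds the sheet beneath epithelia that tumor cells cross when they invade. A chain without its partner may not be secreted and may be degraded inside the cell.

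The 9 libraries were RNA sequencing of untreated cells labelled as MDA-MB-231, a human triple-negative breast cancer line of mesenchymal appearance, grown in DMEM with fetal bovine serum. Of the 9 libraries, 3 were labelled WT, 3 came from the *SNAI1*-KO clone CS16 and 3 from the *SNAI1*-KO clone CS19. *SNAI1* encodes a zinc finger repressor of epithelial genes, and the study asked what its loss does to invasive breast cancer cells. Per the study's methods, *SNAI1* was cut by CRISPR/Cas9 with guides in exon 1, in exon 2 and at the border of exon 2 with its intron, and cells that had taken up a repair plasmid were selected with puromycin. Each clone grew from a single cell, so CS16 and CS19 are 2 clones with 3 libraries each, and the labels do not say whether libraries of a group came from separate cultures. The p-values below therefore measure the spread between these libraries.

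The libraries held 19527195 to 28627777 counted read pairs. Levels are given as CPM, the counts scaled to library size after TMM normalization, or as TPM, scaled to exon length as well, where genes are compared with each other. A gene was called when its log2 fold change was at least 2 in either direction with an adjusted p below 0.05, and all adjusted p-values are those of the quasi-likelihood test in edgeR after Benjamini-Hochberg adjustment over all genes tested. Several checks went against the labels and are given here because every collagen comparison rests on the same libraries. *SNAI1* gave 0.791, 2.17 and 1.08 CPM in WT, 1.28, 1.91 and 1.95 CPM in CS16, and 2.6, 4.08 and 3.08 CPM in CS19, so its counts were not lower in the libraries labelled *SNAI1*-KO (log2 fold change 0.89, SE 0.42, adjusted p = 0.0838, and 1.40, adjusted p = 0.0146, without WT-2). These counts cover the whole gene, so transcript left by a partial deletion would be counted. The study itself reported lower *SNAI1* mRNA at every exon by RT-qPCR and no detectable SNAI1 protein in both clones. It also reported deletions at exon 2 and the intron after it in its aligned reads. The whole-gene counts here stand apart from those measurements, and the reason was not tested. *CD44* and *S100A6*, which mark MDA-MB-231, gave 37760 and 251758 counts over the WT libraries, 0 counts in CS16, and 2 and 1 counts in CS19. *CDKN2A*, *CDKN2B* and *MTAP*, a neighbouring set of genes that MDA-MB-231 is known to lack, gave 0 counts in WT and mean levels of 11.4 to 105 CPM in CS16 and CS19. All 6 libraries labelled *SNAI1*-KO share this pattern, which goes against the labelled line. Not every listed marker did so. *VIM*, *EGFR* and *CAV1*, which also mark MDA-MB-231, had means of 922, 452 and 1076 CPM in WT. They were lower but present in CS16 (339, 15.5 and 23.9 CPM) and CS19 (305, 14.1 and 17.2 CPM). *ESR1* and *PGR*, listed as absent from the line, had means of at most 0.421 CPM in each group. A difference from WT below therefore cannot be told apart from a difference between lines. Within WT, the library WT-2 stood apart, its chi-square divided by the degrees of freedom being 188 against WT-1 and 230 against WT-3, where WT-1 against WT-3 gave 14.6. Of 25 collagen genes with a WT mean of at least 1 CPM, 24 were highest in WT-2 among the WT libraries, and 15 (60%) were over 2 times the mean of WT-1 and WT-3, compared with 18.3% of all 15141 genes at that level.

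Collagen genes took a smaller share of the counts in the libraries labelled *SNAI1*-KO, and the classes that made up that share were different. They held 0.201%, 0.472% and 0.178% of the counted read pairs in WT, 0.0780%, 0.0658% and 0.0784% in CS16, and 0.0816%, 0.0853% and 0.0740% in CS19. The lowest WT library lay above the highest of the 6 others, with or without WT-2, and exact 95% binomial intervals, which cover counting error only, did not overlap between WT and the clones. In summed TPM of all collagen genes, collagen IV took 7.07% to 9.06% in WT and 32.0% to 34.1% in the 6 other libraries. The sum itself was 516 to 1822 TPM in WT and 196 to 286 TPM in the 6 others. A larger share of this smaller sum is therefore not a rise in level of the same size. FACIT collagens went from 6.13% to 13.9% in WT to at most 3.44%, collagens VIII and X from 5.16% to 12.8% to at most 1.89%, and collagen VII from 7.51% to 9.0% to at most 2.5%. Fibrillar collagens took 13.9% to 23.2% in WT, 20.3% to 21.8% in CS16 and 9.04% to 10.3% in CS19. These shares are descriptions without a test, and in bulk libraries fewer cells with a transcript and less transcript per cell cannot be told apart.

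**Figure D1:**
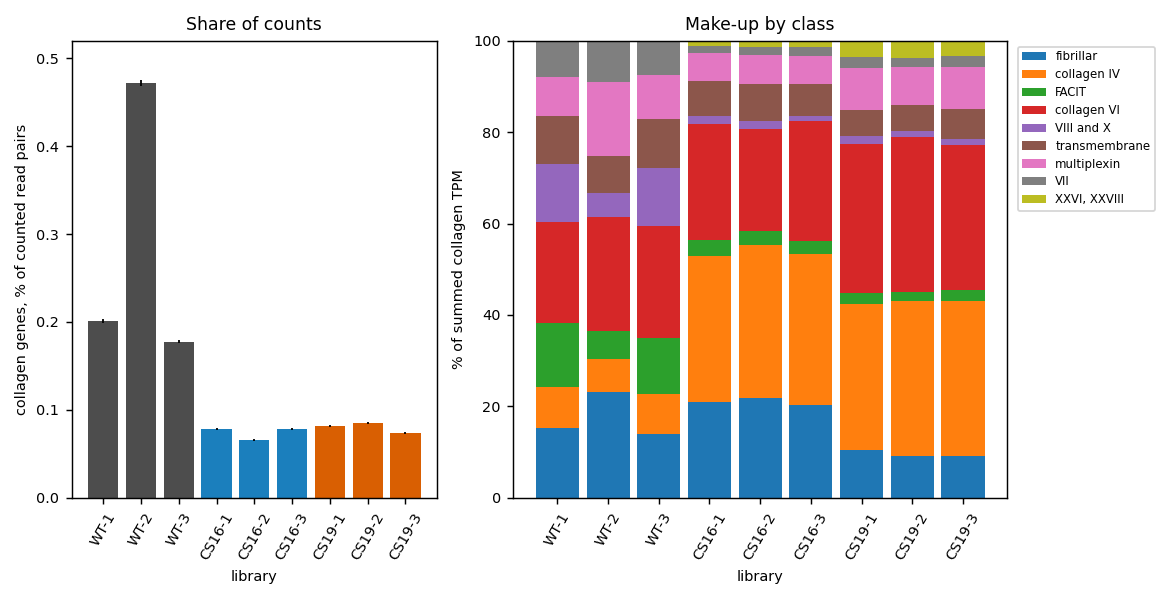
Left, collagen genes as a percent of counted read pairs in each library (bars, with exact 95% binomial intervals that cover counting error only); right, the classes as a percent of summed collagen TPM. WT-2 has the tallest bar at 0.472%, the 6 libraries of CS16 and CS19 lie between 0.0658% and 0.0853%, and collagen IV (orange) takes 32.0% to 34.1% of collagen TPM in those 6.

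The leading genes were different as well. By mean TPM in WT, *COL5A1* (168), *COL6A1* (138), *COL18A1* (133), *COL6A2* (95.3) and *COL7A1* (84.9) led the list. In CS16 the order was *COL6A1* (44.2), *COL3A1* (26.04), *COL4A5* (21.9), *COL4A6* (20.9) and *COL4A1* (18.8), and in CS19 it was *COL6A1* (52.9), *COL6A2* (26.5), *COL18A1* (21.5), *COL4A2* (20.3) and *COL4A6* (19.1). Between neighbours in these orders the means differed by less than the larger of their SDs, except between *COL6A1* and the next gene in both clones and between *COL3A1* and *COL4A5* in CS16. *COL5A1* was first in WT-2, where it reached 371 TPM, while *COL12A1* was first in WT-1 and *COL6A1* in WT-3. Without WT-2 the WT order was *COL6A1* (78.9), *COL8A1* (72.4), *COL12A1* (71.5), *COL5A1* (67.1) and *COL18A1* (51.96).

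**Figure D2:**
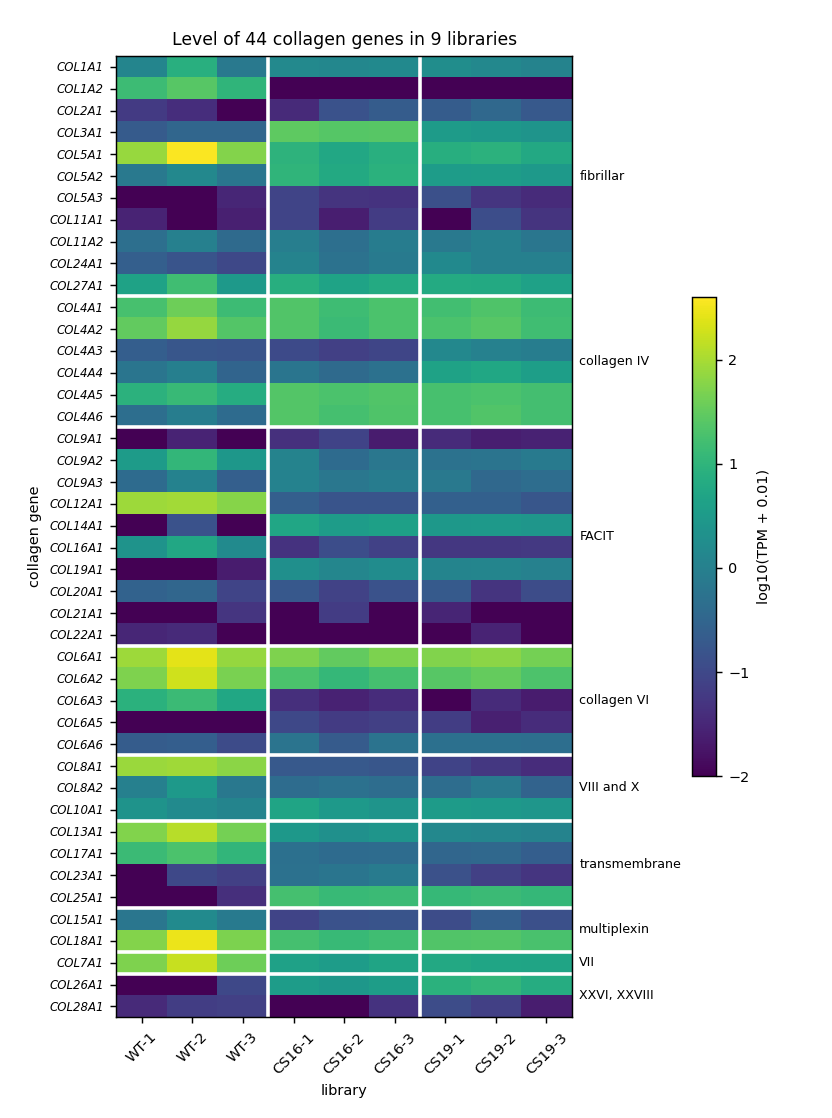
Heat map of the 44 collagen genes (rows, grouped by class) in the 9 libraries (columns), coloured by log10(TPM + 0.01). Rows such as *COL1A2*, *COL6A3*, *COL8A1* and *COL12A1* are bright in WT and dark in CS16 and CS19, and rows such as *COL3A1*, *COL4A6*, *COL14A1* and *COL25A1* show the opposite.

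Of the 44 collagen genes, 22 were called in *SNAI1*-KO against WT, 9 higher and 13 lower. Of all 19631 genes tested in that comparison, 26.9% were called, 12.6% higher and 14.3% lower. Another 15 were tested without a call, of which 6 had an adjusted p below 0.05 with a smaller fold change, which made 28 by adjusted p alone, where 63.7% of all genes tested passed it. The other 7 (*COL5A3*, *COL6A5*, *COL9A1*, *COL11A1*, *COL21A1*, *COL22A1* and *COL28A1*) were too low to test, with no library above 0.304 CPM. The median log2 fold change of the 37 tested was -0.29, compared with -0.00404 over all genes tested, and it was the same with *COL1A2* set to its lower bound. That median was the value of *COL4A1*, which was 0.16 without WT-2. *COL1A1* and *COL27A1* turned positive without WT-2 as well, so the sign of the median depended on that library. Without WT-2, 20 of the 22 stayed called, and *COL6A2* and *COL18A1* fell below the fold limit, while 25.9% of all genes were called.

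Among the fibrillar collagens, 4 of 9 tested rose in the libraries labelled *SNAI1*-KO and 2 fell, where 12.6% of all genes tested rose and 14.3% fell. *COL1A2* (chromosome 7, 94394895 to 94431227, plus strand, GRCh38), the minor chain of collagen I, gave 906, 1409 and 797 counts in WT, or 44.8, 80.6 and 41.0 CPM. It gave 0 counts in all 6 libraries of CS16 and CS19. Set against a floor of 3 counts in each of those libraries, its mean was at least 376-fold lower (adjusted p = 1.30e-06), and leaving out any library did not change the call. *COL1A1*, which supplies the other chain of the same trimer and can also form a trimer of its own, gave 3.16, 20.7 and 2.37 CPM in WT, 3.78, 4.49 and 4.34 CPM in CS16, and 5.10, 3.87 and 3.84 CPM in CS19. Its groups overlapped and it was not called (log2 fold change -1.04, adjusted p = 0.109), and without WT-2 its log2 fold change was 0.61 (adjusted p = 0.0254), the opposite sign. In TPM, *COL1A2* stood 3.24 to 14.4 times above *COL1A1* in WT and at 0 in the clones.

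*COL3A1* (chromosome 2, 188974373 to 189012746), the chain of the homotrimeric collagen III of soft tissue and early scars, was near the floor in WT at 0.395, 0.629 and 0.771 CPM. It gave 55.2, 59.4 and 55.2 CPM in CS16 and 7.15, 5.73 and 5.93 CPM in CS19, so the 3 groups did not overlap and CS16 was highest. Its log2 fold change was 5.71 (SE 1.13, adjusted p = 0.000937) over both clones, 6.59 in CS16 and 3.42 in CS19.

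The chains of collagen V, which starts collagen fibrils and sets their width, went in opposite directions. *COL5A1* gave 252, 1206 and 227 CPM in WT, 29.5, 23.0 and 29.1 CPM in CS16, and 27.6, 30.4 and 24.7 CPM in CS19. It fell by 4.36 on the log2 scale (SE 0.44, adjusted p = 4.64e-06), with a log2 fold change of -3.13 without WT-2. *COL5A2* gave 1.53, 2.97 and 1.70 CPM in WT, 21.0, 16.8 and 20.2 CPM in CS16, and 8.24, 8.21 and 8.0 CPM in CS19, a rise of 2.74 (SE 0.45, adjusted p = 0.000237). The TPM ratio of *COL5A2* to *COL5A1* was 0.00376 to 0.0114 in WT, 1.06 to 1.11 in CS16 and 0.412 to 0.493 in CS19, with no overlap between the 3 groups. *COL5A2* lies beside *COL3A1* on chromosome 2, and both rose.

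Of the remaining fibrillar collagens, *COL24A1* rose from a mean of 0.451 CPM in WT to 3.07 CPM (log2 fold change 2.75, adjusted p = 7.90e-05). *COL2A1*, the cartilage collagen, had overlapping groups and was called on 3 counts in WT and 59 in the 6 other libraries, a ratio of 7.92 with a counting interval of 2.58 to 39.5, and it fell under the filter on low counts when any library of CS19 was left out. *COL27A1* gave 18.1, 64.0 and 14.9 CPM in WT, 30.8, 23.5 and 29.6 CPM in CS16, and 29.1, 26 and 21.8 CPM in CS19. It was not called, and its log2 fold change moved from -0.27 (adjusted p = 0.557) to 0.69 (adjusted p = 0.00241) without WT-2. *COL11A2*, between 0.989 and 2.21 CPM in all libraries, had overlapping groups and no call (log2 fold change 0.40, adjusted p = 0.273). Its WT-2 value of 2.12 CPM made that overlap, and without WT-2 the log2 fold change was 0.83 (adjusted p = 0.0193).

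Of the 6 collagen IV genes, all tested, 1 was called over both clones, where 26.9% of all genes tested were called. The 6 did not move together. They lie as head-to-head pairs, *COL4A1* with *COL4A2* on chromosome 13, *COL4A3* with *COL4A4* on chromosome 2, and *COL4A5* with *COL4A6* on the X chromosome, and each pair is read in opposite directions from the stretch of DNA between the starts. Parts of these stretches are printed here because each stretch fronts 2 collagen genes whose values follow. They were read from RefSeq's promoter windows (GRCh38.p14, plus strand), within 250 bases of the start of the plus-strand gene. Bases inside the GENCODE v44 exons of these genes were left out. The printed parts run over chr13:110307158-110307257, chr2:227164454-227164623 and chrX:108439588-108439837.
COL4A1 and COL4A2: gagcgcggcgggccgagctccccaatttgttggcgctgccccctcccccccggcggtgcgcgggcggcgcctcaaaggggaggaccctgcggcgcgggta
COL4A4 and COL4A3: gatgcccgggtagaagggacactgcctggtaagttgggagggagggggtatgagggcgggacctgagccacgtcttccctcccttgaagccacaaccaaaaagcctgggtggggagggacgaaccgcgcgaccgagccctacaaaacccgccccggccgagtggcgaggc
COL4A6 and COL4A5: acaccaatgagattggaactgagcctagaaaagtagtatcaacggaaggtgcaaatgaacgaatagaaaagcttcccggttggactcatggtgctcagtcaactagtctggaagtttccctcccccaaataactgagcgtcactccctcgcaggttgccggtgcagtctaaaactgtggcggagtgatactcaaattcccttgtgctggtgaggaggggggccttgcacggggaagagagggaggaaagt
The gap between the RefSeq starts was 126 bases for *COL4A1* and *COL4A2*, 418 for *COL4A3* and *COL4A4*, and 379 for *COL4A5* and *COL4A6*. G and C made up 78.0%, 65.9% and 51.2% of the printed bases.

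*COL4A1* and *COL4A2* encode the chains of the collagen IV found in nearly all basement membranes. *COL4A1* gave 77.9, 163 and 75.3 CPM in WT, 92.9, 78.4 and 91.9 CPM in CS16, and 76.1, 97.8 and 78.7 CPM in CS19, with overlapping groups and no call (log2 fold change -0.29, adjusted p = 0.283, and 0.16, adjusted p = 0.228, without WT-2). *COL4A2* gave 172, 426 and 165 CPM in WT, 121, 95.1 and 125 CPM in CS16, and 121, 149 and 112.1 CPM in CS19. Every WT library lay above every other library for *COL4A2*, yet its log2 fold change of -1.08 (SE 0.27, adjusted p = 0.00449), or -0.49 without WT-2, was under the fold limit. The TPM ratio of *COL4A2* to *COL4A1* was 1.67 to 1.98 in WT and 0.922 to 1.21 in the clones.

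In the pair of *COL4A5* and *COL4A6*, whose chains meet in the basement membranes of skin and smooth muscle, the partners approached the same level. *COL4A6* gave 1.19, 2.35 and 1.34 CPM in WT, 62.0, 60.3 and 64.2 CPM in CS16, and 54.3, 63.1 and 57.4 CPM in CS19. It rose by 5.22 on the log2 scale (SE 0.25, adjusted p = 8.95e-09), 5.57 without WT-2. *COL4A5* gave 30.6, 43.9 and 29.9 CPM in WT, 79.0, 85.4 and 86 CPM in CS16, and 70.4, 70.9 and 74.4 CPM in CS19. All 6 libraries of the clones were above all WT libraries, with a log2 fold change of 1.16 (SE 0.16, adjusted p = 7.61e-05) that was under the fold limit. *COL4A6* stood at 0.0495 to 0.0684 of *COL4A5* in WT and at 0.903 to 1.14 of it in the clones, in TPM.

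*COL4A3* and *COL4A4*, known for their chains in the glomerulus of the kidney, were low in WT and CS16 and higher in CS19. *COL4A3* gave 0.791, 0.572 and 0.668 CPM in WT, 0.344, 0.287 and 0.319 CPM in CS16, and 5.42, 3.87 and 4.0 CPM in CS19. *COL4A4* gave 2.03, 3.32 and 1.29 CPM in WT, 2.06, 1.62 and 1.91 CPM in CS16, and 16.9, 19.6 and 16.2 CPM in CS19. In CS19 against WT both rose, with log2 fold changes of 2.73 (SE 0.30, adjusted p = 0.000194) for *COL4A3* and 3.03 (SE 0.36, adjusted p = 0.000311) for *COL4A4*. In CS16 against WT *COL4A3* was lower without overlap (-1.06, SE 0.34, adjusted p = 0.0329), under the fold limit. *COL4A4* overlapped there (-0.21, adjusted p = 0.666). Over both clones neither was called (adjusted p = 0.131 and 0.0575), though *COL4A4* was called when any library of CS16 was left out, with adjusted p-values of 0.0295 to 0.0343. Exons of *MFF-DT* on the opposite strand cover 6.82% of the exon bases of *COL4A3*, and the counting did not use strand.

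**Figure D3:**
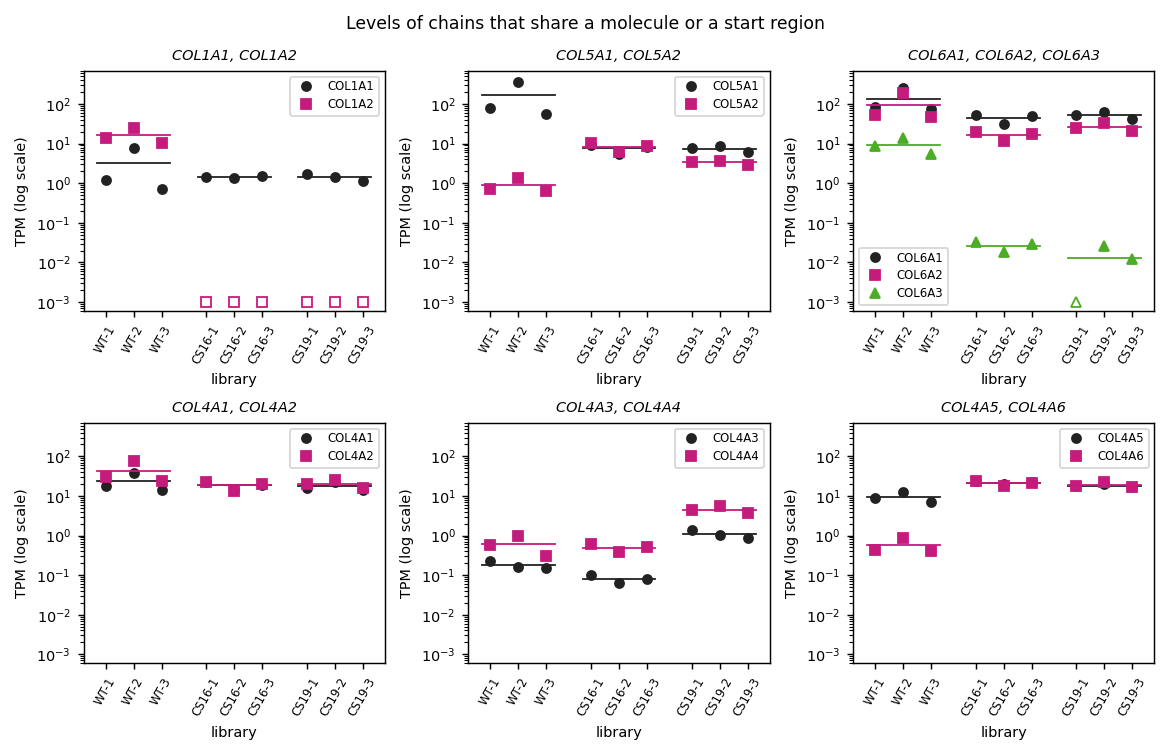
TPM on a log axis in each library for chains of the same molecule (top) and for the head-to-head collagen IV genes (bottom). Horizontal lines are group means, and open symbols at the bottom of a panel are libraries with 0 counts. *COL1A2* is at 0 in all 6 libraries of the clones, *COL5A1* and *COL5A2* converge, and *COL4A6* joins *COL4A5* in both clones. *COL4A3* and *COL4A4* are higher in CS19 than in WT and CS16.

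FACIT collagens sit on the surface of fibrils. Of the 10, 7 were tested, 3 fell and 2 rose, where 14.3% of all genes tested fell and 12.6% rose. *COL12A1*, a fibril-bound collagen of tendon and stroma, gave 461, 512 and 400 CPM in WT and 0.877 to 1.5 CPM in the 6 other libraries, and it fell by 8.58 on the log2 scale (SE 0.19, adjusted p = 1.19e-10). Its values differed little between WT libraries, and without WT-2 it fell by 8.50. *COL16A1* fell from a mean of 8.96 to 0.185 CPM (log2 fold change -5.56, adjusted p = 4.72e-07, and -4.93 without WT-2). *COL9A2*, a cartilage chain, fell from 7.27 to 0.912 CPM (log2 fold change -2.98, adjusted p = 4.58e-05, and -2.18 without WT-2).

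*COL14A1*, the close relative of *COL12A1*, went the other way. It gave 0, 7 and 0 counts in WT, the 7 in WT-2, whereas CS16 gave 15.1, 13.0 and 13.3 CPM and CS19 gave 9.43, 9.42 and 9.61 CPM (log2 fold change 6.49, SE 0.68, adjusted p = 6.19e-06). Without WT-2 its WT counts were 0, and its mean in the clones was at least 75.5-fold higher against a floor of 3 counts. *COL19A1* gave 1 count in WT, in WT-3, and 6.09, 5.11 and 6.06 CPM in CS16 and 4.28, 4.13 and 4.16 CPM in CS19. That is a ratio of 282 with a counting interval of 50.4 to 11139 (adjusted p = 2.00e-07). *COL9A3* and *COL20A1* had overlapping groups and no call, with log2 fold changes of 0.35 (adjusted p = 0.523) and -0.76. Without WT-2 that of *COL9A3* was 1.12 (adjusted p = 0.0457), under the fold limit.

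Collagen VI, a beaded filament that ties cells to the matrix, is assembled from *COL6A1*, *COL6A2* and 1 further chain, usually *COL6A3*. Of its 5 members, 4 were tested and 2 were called, where 26.9% of all genes tested were called. *COL6A3* gave 55.0, 85.2 and 42.9 CPM in WT, 0.196, 0.143 and 0.199 CPM in CS16, and 0, 0.174 and 0.0984 CPM in CS19, with at most 5 counts in a library of the clones. It fell by 8.77 on the log2 scale (SE 0.38, adjusted p = 4.75e-09). *COL6A2* gave 80.3, 289 and 92.7 CPM in WT, 30.4, 22.5 and 29.9 CPM in CS16, and 43.8, 53.5 and 41.3 CPM in CS19. Its fall of 2.06 (SE 0.38, adjusted p = 0.000526) was at the limit of a call, and was -1.23 without WT-2 and -1.95 without CS16-2, both under the fold limit. *COL6A1* gave 135, 414 and 148 CPM in WT, 81.1, 64.8 and 87.5 CPM in CS16, and 96.3, 104 and 87.5 CPM in CS19, and was not called (log2 fold change -1.42, adjusted p = 0.00165, and -0.71 without WT-2). *COL6A1* was the member with the highest mean TPM in both clones, while *COL6A3* stood at 0.053 to 0.105 of it in WT and at 0.000623 or less in the clones. The alternatives to *COL6A3* stayed low, with *COL6A6* at 0.527 CPM in WT and 1.43 CPM in the clones (log2 fold change 1.44, adjusted p = 0.00375) and *COL6A5* with 0 counts in WT and 1 to 5 counts in each other library.

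*COL8A1*, a short-chain collagen of vessel walls and the cornea, gave 219, 245 and 219 CPM in WT, 0.491, 0.621 and 0.478 CPM in CS16, and 0.228, 0.130 and 0.0984 CPM in CS19. It fell by 9.41 on the log2 scale (SE 0.36, adjusted p = 2.12e-09), with 10 to 13 counts per library left in CS16 and 3 to 5 in CS19. Its partner *COL8A2* had a mean of 1.57 TPM in WT, where *COL8A1* had 78.0 TPM, and was not called (log2 fold change -1.66, adjusted p = 0.00392, and -0.87 without WT-2). *COL10A1*, the collagen of hypertrophic cartilage, was at 1.98 CPM in WT and 3.90 CPM in the clones, a log2 fold change of 0.97 (adjusted p = 0.00593) under the fold limit.

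Of the transmembrane collagens, which span the plasma membrane and can be shed from it, *COL13A1* and *COL17A1* fell and *COL25A1* rose. *COL13A1*, found at cell-matrix junctions, gave 181, 425 and 185 CPM in WT, 9.13, 8.46 and 9.09 CPM in CS16, and 5.10, 4.52 and 4.72 CPM in CS19 (log2 fold change -5.27, SE 0.34, adjusted p = 1.08e-07). *COL17A1*, a hemidesmosome protein that anchors epithelial cells to the basement membrane, gave 27.7, 40.1 and 27.2 CPM in WT and 0.590 to 1.00 CPM in the 6 other libraries (log2 fold change -5.26, SE 0.22, adjusted p = 3.17e-09). *COL25A1*, a collagen of neurons, gave 2 counts in WT, both in WT-3. It gave 44, 41.1 and 39.1 CPM in CS16 and 33.9, 36.6 and 37.8 CPM in CS19, a ratio of 1104 with a counting interval of 305 to 9116 (adjusted p = 5.46e-09). *COL23A1* was at or below 1.12 CPM in every library, rose in CS16 against WT (log2 fold change 3.61, SE 0.65, adjusted p = 0.00257), and was too low to test in CS19 against WT.

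The 2 multiplexins, basement membrane proteoglycans, and collagen VII all fell, where 14.3% of all genes tested fell. *COL18A1*, whose end fragment is endostatin, gave 136, 727 and 149 CPM in WT, 42.2, 38.5 and 42.6 CPM in CS16, and 60.8, 60.7 and 58.3 CPM in CS19. Its fall of 2.74 (SE 0.44, adjusted p = 0.000203) was 1.5 without WT-2, under the fold limit, and in CS19 against WT the call was lost without any 1 library of CS19 (adjusted p = 0.05 to 0.0580). Exons of *SLC19A1* on the opposite strand cover 18.5% of its exon bases. *COL15A1* fell from 2.08 to 0.300 CPM (log2 fold change -2.75, adjusted p = 4.71e-05). *COL7A1*, the anchoring fibril that fastens the epidermis to the dermis, gave 168, 531 and 157 CPM in WT, 13.4, 14.1 and 17.4 CPM in CS16, and 21.9, 17.2 and 19.9 CPM in CS19. It fell by 4.04 (SE 0.35, adjusted p = 1.21e-06), and by 3.23 without WT-2. *COL26A1*, a short collagen described in testis and ovary, had 2 counts in WT, both in WT-3, with 3.09, 3.06 and 3.67 CPM in CS16 and 8.61, 10.2 and 7.90 CPM in CS19, a ratio of 178 with a counting interval of 49.2 to 1474 (adjusted p = 2.04e-05).

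The clones were then compared with WT one at a time and with each other. In CS16 against WT, 22 collagen genes were called (9 higher, 13 lower), where 27.1% of all genes tested were called, 11.8% higher and 15.3% lower. In CS19 against WT, 23 were called (11 higher, 12 lower), where 26.4% of all genes tested were called, 12.0% higher and 14.4% lower. By adjusted p alone 29 passed in CS16, where 55.6% of all genes did, and 29 in CS19, where 52.9% did. These comparisons share the 3 WT libraries. *COL6A2* (-2.45) and *COL23A1* were called in CS16 and not in CS19, where *COL23A1* was not tested, and *COL2A1*, *COL4A3* and *COL4A4* in CS19 and not in CS16, where *COL2A1* was not tested. A call in 1 comparison and not in the other is no test of a difference. In the direct test *COL6A2* differed by -0.74 (SE 0.12, adjusted p = 0.000499), under the fold limit, and its groups did not overlap. *COL2A1* differed by -0.90 (adjusted p = 0.229). Without WT-2 the CS16 call of *COL6A2* (-1.65) was lost, as were the calls of *COL18A1* in CS16 (-1.79) and CS19 (-1.23). *COL5A2* was close to the limit in CS19 (log2 fold change 2.02), and fell under it without WT-1 (1.82) or WT-3 (1.91), with RLE normalization and in a shared fit of 3 groups. *COL6A2* passed the limit in CS19 without WT-1 (-2.03).

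**Figure D4:**
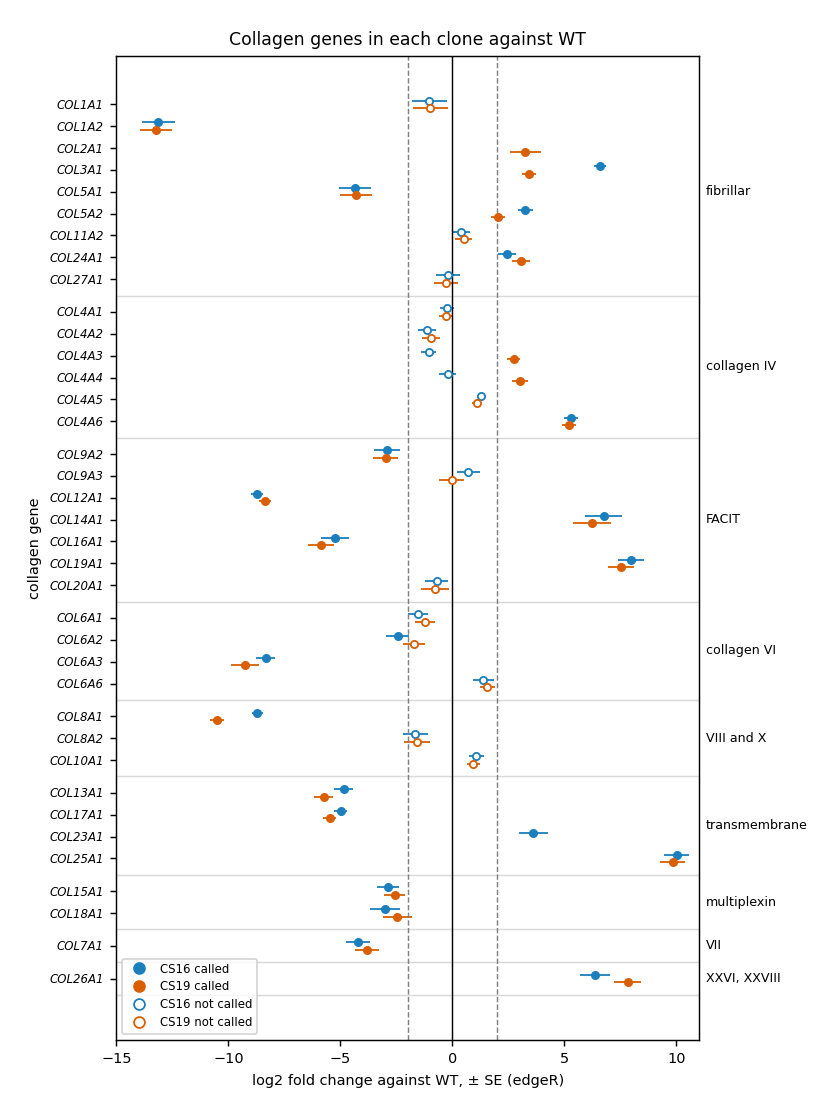
Log2 fold change against WT (edgeR), with an SE derived from the test's F statistic, for each tested collagen gene. CS16 is in blue and CS19 in orange, filled where called. Dashed lines mark 2 and -2. The points of the clones lie close to each other for most genes and apart for *COL3A1*, *COL4A3* and *COL4A4*. The value of *COL1A2*, at 0 counts in both clones, depends on the prior count and is no estimate of size.

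A direct test of CS16 against CS19, which uses no WT library, called 4 of 33 collagen genes tested, where 1.13% of all genes tested were called (0.633% higher and 0.496% lower in CS16). *COL3A1* was higher in CS16 (log2 fold change 3.17, SE 0.10, adjusted p = 3.05e-10). *COL23A1* was higher in CS16 as well, at 0.903 against 0.112 CPM (3.03, SE 0.48, adjusted p = 0.000412). *COL4A3* was lower in CS16 (-3.79, SE 0.28, adjusted p = 6.90e-07), and so was its neighbour *COL4A4* (-3.23, SE 0.14, adjusted p = 4.65e-09). These 4 calls were made in every alternative fit of this comparison. By adjusted p alone 15 collagen genes differed, 8 higher and 7 lower in CS16, where 27.4% of all genes did. Among the 11 under the fold limit, *COL26A1* was lower in CS16 (-1.44, adjusted p = 1.25e-05), and *COL5A2* (1.24, adjusted p = 3.00e-06), *COL8A1* (1.81, adjusted p = 0.0114) and *COL13A1* (0.89, adjusted p = 0.000151) were higher there, *COL8A1* with a call (2.19) when CS19-1 was left out. The other 7 differed by at most 0.74 on the log2 scale. *COL4A6*, *COL5A1* and *COL12A1* had no adjusted p below 0.05 between the clones, with log2 fold changes of 0.09 (SE 0.07), -0.02 (SE 0.11) and -0.35 (SE 0.28).

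Genes that make, trim, bind or receive collagens were examined in 5 lists with 58 genes. Of these, 50 were tested in *SNAI1*-KO against WT, 11 rose and 15 fell, against the same 12.6% and 14.3% of all genes. Among 20 enzymes and chaperones of collagen folding, 3 rose and 2 fell. *FKBP10*, a prolyl isomerase that serves telopeptide lysine hydroxylation, gave 0.346, 0.572 and 0.36 CPM in WT, 268, 238 and 281 CPM in CS16, and 192, 187 and 173 CPM in CS19 (log2 fold change 9.03, SE 0.32, adjusted p = 1.34e-09). *P3H3* (6.03) and *P3H4* (2.87), whose products act together on lysine hydroxylation, rose as well. *P3H2*, a prolyl 3-hydroxylase that acts on collagen IV, fell by 5.22, from 68.5 to 1.84 CPM. *SERPINH1*, the collagen chaperone HSP47, fell by 2.05, and by 1.84 without WT-2, under the fold limit. *P4HB*, the most abundant of the list, gave 505, 889 and 551 CPM in WT and 288 to 315 CPM in the clones (log2 fold change -1.10, adjusted p = 0.000154), under the fold limit.

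All 13 genes of procollagen processing and cross-linking had an adjusted p below 0.05, as 63.7% of all genes tested did. Calls were 4 higher and 6 lower, where 12.6% and 14.3% of all genes tested were called. *LOXL4* (log2 fold change -5.78), *ADAMTS14* (-4.99, or -4.21 without WT-2), *LOXL2* (-4.80, or -4.05), *LOXL1* (-3.26, or -2.68), *LOX* (-2.43) and *BMP1* (-2.46), the procollagen C-proteinase, fell. *ADAMTS2*, a procollagen N-proteinase, rose from 6 counts in WT to means of 8.14 CPM in CS16 and 1.90 CPM in CS19 (log2 fold change 5.49, adjusted p = 0.000504, and 7.35 without WT-2, which held 5 of the 6 counts). *TLL1*, a relative of *BMP1*, went from 1 count in WT, in WT-2, to a mean of 2.38 CPM, a ratio of 136 with a counting interval of 24.3 to 5395. *ADAMTS3* and *PCOLCE2* rose by 3.41 and 3.47. *LOXL3* was the highest of those without a call in CS16 and CS19, at 10.4 CPM (log2 fold change 1.47).

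Of 11 collagen receptors, 8 were tested, 1 rose and 4 fell, where 12.6% of all genes tested rose and 14.3% fell. The integrin chains *ITGA2* and *ITGB1*, which form a main collagen receptor, gave 544, 328 and 522 CPM and 1904, 1286 and 2055 CPM in WT, against 24.8 to 39.0 CPM and 154 to 197 CPM in the clones, with log2 fold changes of -3.86 and -3.34. *ITGA10* fell by 3.56. *DDR1* fell by 2.30, and by 1.94 without WT-2, under the fold limit. By contrast *DDR2*, a discoidin receptor for fibrillar collagens, rose by 4.70 (SE 0.21, adjusted p = 5.47e-09), from 4.94, 4.06 and 4.01 CPM in WT to 90.3 to 131 CPM. *MRC2*, an endocytic collagen receptor, had the highest WT level of those without a call, at 68.2 CPM. *MRC2* was at 25.8 CPM in the clones (log2 fold change -1.40, adjusted p = 0.000632), where *ITGA1* was at 30.1 CPM. The small leucine-rich proteoglycans were low, with 3 of 8 tested and 0 called by edgeR or by DESeq2, and 0 with an unadjusted p below 0.05 by either tool. The most abundant, *OGN*, was at 2.91 CPM in WT and 3.30 CPM in the clones.

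All 6 basement membrane partners of collagen IV were called in *SNAI1*-KO against WT, where 26.9% of all genes tested were called. *NID1*, which links collagen IV to laminin, gave 5, 1 and 0 counts in WT and 134 to 226 CPM in the clones (log2 fold change 10.69, SE 0.51, adjusted p = 9.99e-09). *SPARC*, which binds collagens, and *NID2* rose by 6.16 and 5.82. *HSPG2*, the core protein of perlecan, fell by 6.03 (SE 0.49, adjusted p = 7.67e-07), and by 4.72 without WT-2. *AGRN* fell by 4.14, or 3.10 without WT-2. *PXDN*, the peroxidase that cross-links collagen IV, fell by 2.42, and by 1.91 without WT-2, under the fold limit.

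**Figure D5:**
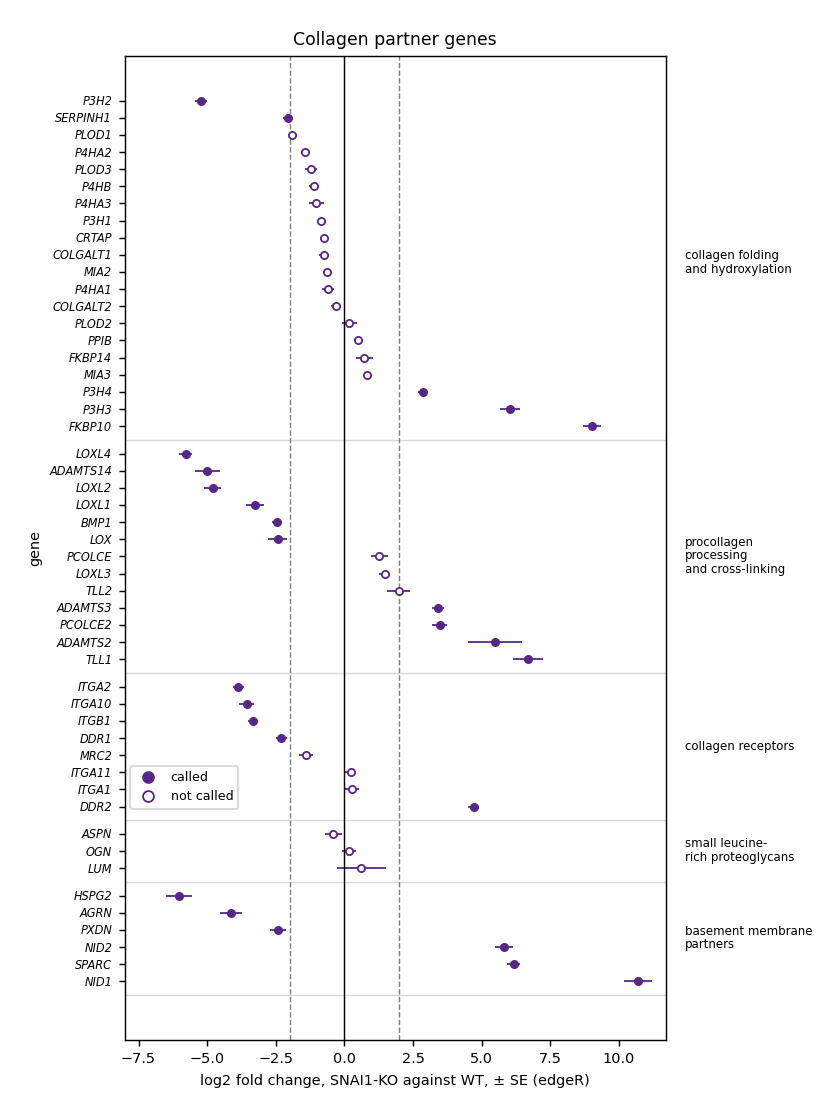
Log2 fold change of *SNAI1*-KO against WT (edgeR), with an SE derived from the test's F statistic, for the 50 tested collagen partner genes in 5 lists. Symbols are filled where called. Dashed lines mark 2 and -2. *NID1* (10.69) and *FKBP10* (9.03) lie farthest to the right, and *HSPG2* (-6.03) and *LOXL4* (-5.78) farthest to the left.

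Genes that mark other collagen-making cells were summed in each library. The 7 fibroblast markers gave 14.5 to 25.9 CPM in WT, 4.21 to 5.35 CPM in CS16 and 3.18 to 3.74 CPM in CS19. Of these 7, 5, 5 and 6 had a count in WT, CS16 and CS19, with *DPT* and *DCN* at 0 in WT, *FAP* and *DPT* in CS16, and *DCN* in CS19. The 7 chondrocyte markers gave 71.5 to 228 CPM in WT and 10.2 to 14.2 CPM in the clones, the 5 osteoblast markers 35.1 to 65.6 CPM and 4.38 to 6.43 CPM with *IBSP* at 0 in all libraries, and the 5 endothelial markers 5.66 to 6.75 CPM and 0.287 to 0.521 CPM, with *CDH5* at 0 in WT and CS19 and *EMCN* in both clones. All 4 sums were lower in the clones, and a single gene held most of each WT sum, with means of 18.0 CPM for *PDGFRB*, 116.96 CPM for *SOX9*, 50.8 CPM for *RUNX2* and 5.68 CPM for *PECAM1*. Other markers had higher means in the clones than in WT, among them *PDGFRA* (0.0191 CPM in WT, 1.52 in CS16 and 2.85 in CS19), *ACAN* (0.0336, 1.78 and 0.654), *MATN1* (0.119, 0.908 and 1.14) and *ALPL* (0, 2.39 and 2.25), and *LUM* was higher in CS16 and lower in CS19 (0.936, 2.68 and 0.262). The part of these markers in the collagen values was not tested.

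The hexamer CAGGTG, or CACCTG when read on the other strand, is the E2-box bound by SNAI factors, and it was searched in the 250 bases before each RefSeq start. Windows were held for 32 of the 44 collagen genes, some with several starts. The E2-box was present in 5 of 44 collagen windows (11.4%) and in 17.5% of all 35116 windows. The members with a match were *COL16A1* and *COL9A2*, which fell, *COL8A2*, which was not called, and *COL4A3* and *COL4A4*. The last pair share a single match at chr2:227164410-227164415, inside an annotated exon of *COL4A4*, shown here with the E2-box in capitals and its flanks (chr2:227164398-227164427, plus strand).
COL4A4 and COL4A3: tggatccgcgccCACCTGcccctcaggcgc
None of the 3 printed parts of the stretches between collagen IV starts held an E2-box. The match shared by *COL4A3* and *COL4A4* lies between their RefSeq starts but outside the printed part. A match is a description of these letters and not evidence of binding.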

How the data were processed

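The authors depleted ribosomal RNA, made stranded paired-end libraries (TruSeq), trimmed reads with Trimmomatic 0.36, aligned them to GRCh38.p13 with STAR 2.7.2b in 2 passes, and counted read pairs on gencode release 38 with featureCounts (Subread 2.0.0), with a mapping quality of at least 30 and without strand. Both mates had to map, and pairs split across chromosomes were left out. The deposited values are raw counts of read pairs for each gene in each library. No molecular identifiers were used, so intervals and floors (3 counts) cover counting error only.

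Groups were taken from the labels. Counts were filtered with filterByExpr, normalized by TMM and tested with edgeR 4.0.16 (quasi-likelihood) in R 4.3.3, for *SNAI1*-KO (6) against WT (3), each clone against WT, and CS16 against CS19. The 2 cut-offs of a call are those of the study. TPM was computed from counts and exon length. Alternatives were RLE normalization, DESeq2 1.42.0, other filters and thresholds, a shared fit, a replicate block and leaving out each library. The test was tested on simulated data. Collagen genes, lists and rules were chosen with earlier results of these data known. Named genes are all collagen genes, with values per library for those of at least 10 CPM in a group, or those of at least 2 CPM that differed between clones, and from each partner list up to 4 called genes with the largest change and the most abundant without a call, and a few more called genes were named after their values were seen.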

Additional observations from a re-analysis of the deposited data

Results flagged for a closer look

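Among the 37 collagen genes tested, 2 had a library that stood apart from the other 5 of the 6 libraries labelled *SNAI1*-KO by Dixon's criterion, which chance meets in about 1 in 20 groups. For *COL6A6* the gap of CS16-2, at 0.717 CPM, to its nearest neighbour was 0.719 of the whole range. For *COL16A1* the gap of CS16-2, at 0.382 CPM, was 0.644 of the range, at levels of a few counts.

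The effect on 4 collagen genes differed between the clones in the direct edgeR test of CS16 against CS19. The log2 difference was 3.17 for *COL3A1* and 3.03 for *COL23A1*, which were higher in all 3 libraries of CS16, and -3.79 for *COL4A3* and -3.23 for *COL4A4*, which were higher in all 3 libraries of CS19. As each clone grew from a single cell, the clone and the edit cannot be told apart in this comparison.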

How the results depend on the processing

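The alternatives changed 1 choice at a time, and counts of collagen calls stayed within 1.5 times of the reported ones in the WT comparisons. Leaving out each library gave 20 to 23 calls for *SNAI1*-KO, 20 to 22 for CS16, 22 to 23 for CS19 and 4 to 5 for CS16 against CS19. By adjusted p alone, CS16 against CS19 gave 15 calls (8 higher, 7 lower), and with a log2 fold change of 1 it gave 7, of which 4 were higher. By adjusted p alone, 42 of the 50 partner genes tested were called in *SNAI1*-KO against WT, 26 of them lower, where 63.7% of all genes tested passed. The replicate numbers did not pair the libraries (correlations of same-numbered libraries -0.206 to 0.190), and with a replicate block 21, 22, 22 and 4 collagen genes were called in the 4 comparisons, with *COL6A2* lost over both clones (-1.87) and *COL18A1* in CS19 (-1.96), and no other collagen call lost. DESeq2 gave no adjusted p for *COL5A1* and *COL18A1* over both clones, and called *COL23A1*, *COL4A4* and *COL6A5* in addition.

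As a share of TPM, collagens took 0.0998% in WT (0.0586% without WT-2), 0.0246% in CS16 and 0.0243% in CS19. Without the 100 highest genes the share of counts was 0.334% in WT (0.224% without WT-2), 0.0890% in CS16 and 0.0955% in CS19. Some genes without a call changed sign. For *SNAI1*-KO, CS16 and CS19 in turn, leaving out each library gave log2 fold changes of -1.46 to 0.61, -1.45 to 0.60 and -1.42 to 0.64 for *COL1A1*, -0.47 to 0.16, -0.42 to 0.20 and -0.49 to 0.15 for *COL4A1*, and -0.59 to 0.69, -0.50 to 0.76 and -0.62 to 0.65 for *COL27A1*, in each case with the highest value without WT-2. *COL4A4* in CS16 ranged from -0.47 to 0.17, the highest again without WT-2. With the replicate block *COL27A1* was at 0.16 in CS16 and 0.033 in CS19. *COL9A3* in CS19 was at 0.0045 with DESeq2, 0.067 without a filter and 0.12 with the block, and -0.34 to 0.73 when a library was left out, with 0.73 without WT-2, 0.22 without CS19-2 and 0.031 without CS19-3. The cause was not tested. Genes near the floor of 3 counts are limited by depth.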
